A study of Mus musculus with 4 samples.

Results

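The gene expression of NIH-3T3 cells, an established line of mouse embryonic fibroblasts, was compared between a culture given CA77 and an untreated culture. CA77 is a small molecule made to raise chaperone-mediated autophagy (CMA), and the comparison asks which transcripts differ after its addition. Both cultures were wild type, were grown to confluency in DMEM with serum and antibiotics, and were collected after 24 h. The CA77 culture received 20 µM of the compound in DMSO. The other culture is labelled "None" with no vehicle named, so compound and vehicle cannot be told apart. Cultures given AR7 or CA39, related activators, at the same 20 µM and for the same time stand on 2 further arrays and are used here only side by side. The comparison used 2 of the 4 one-colour Agilent arrays of the series. Of 55681 gene probes, 33276 were well above background on both arrays and carried no outlier mark, and they gave values for 24462 of 36946 gene names. Each group is 1 array, so no difference below has a replicate culture and no p-value is given.

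In CMA, single cytosolic proteins that carry a KFERQ-like motif are bound by the chaperone HSC70 (Hspa8) and passed into lysosomes through the receptor LAMP2A, a splice form of Lamp2. Signalling through the retinoic acid receptor RARα, encoded by Rara, restrains this pathway. Fibroblasts also answer many foreign or reactive small molecules with enzymes that conjugate, reduce or oxidise them: the factor NRF2 (Nfe2l2) drives glutathione S-transferases and quinone reductase, and the aryl hydrocarbon receptor (AhR) drives cytochromes of the CYP1 family and some of the same enzymes.

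All values below are log2 levels of quantile normalized intensity or differences of such levels, CA77 minus untreated, so that 1 stands for 2-fold. The repeat measurements used for error were 399 probes printed 10 times on each array. Among the 280 of them measured on both arrays, the median SD over spots was 0.116 on untreated and 0.103 on CA77, which gave the difference of both arrays a tolerance of 0.155 (1.11-fold). This covers error within an array and not between cultures. In bulk RNA, fewer cells that express a gene and less RNA per cell cannot be told apart. Slide row 1 and scan 1 held the untreated array, while slide row 2 and scan 2 held the CA77 array, so slide row, scan and treatment cannot be told apart.

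The transcriptome of the CA77 culture was close to that of the untreated culture for most genes. The difference lay within the tolerance for 51.7% of the 24462 genes, and the median difference was -0.02 with an SD of 0.36. A total of 294 genes (1.2%) were past 2-fold higher with CA77 and 105 (0.429%) were past 2-fold lower. At 1.5-fold, 673 genes (2.75%) were higher and 652 (2.67%) lower. Of the 280 probes with repeated spots, 180 lay within the tolerance, 1 was past 2-fold higher and 2 were past 2-fold lower. The higher one was Gsta4, an alpha class glutathione S-transferase, and the lower ones were Wfdc21, which encodes a small secreted protein with a WAP domain, and Acta2, which encodes smooth muscle actin.

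**Figure D1:**
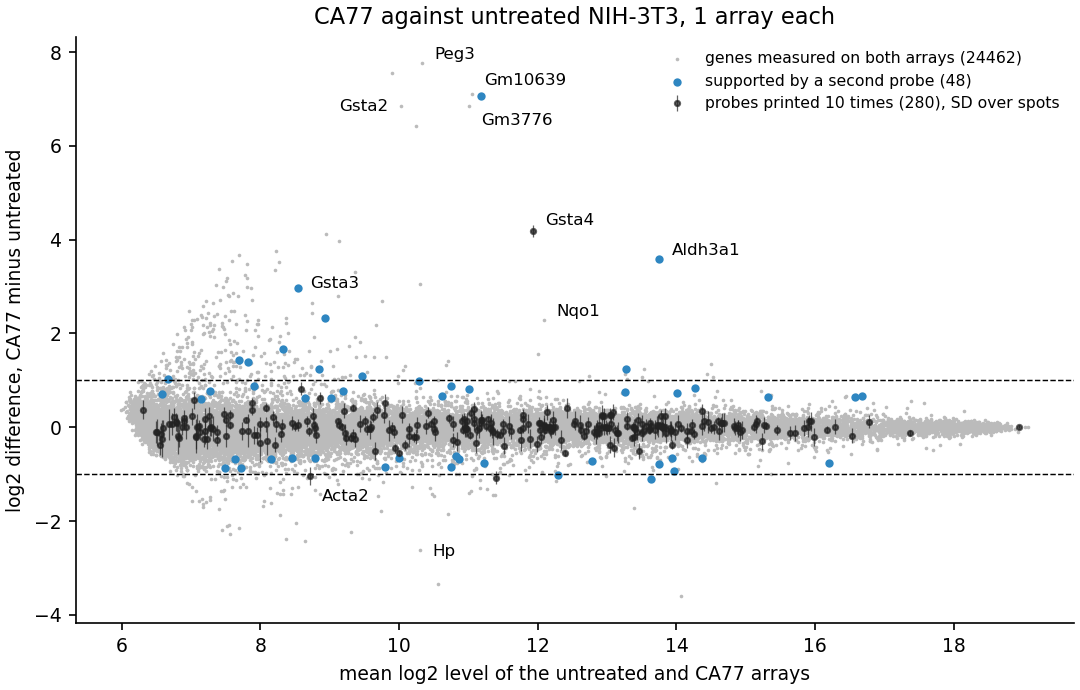
Log2 difference between the CA77 array and the untreated array (vertical axis) against the mean log2 level of both (horizontal axis), 1 point per gene. Blue points are the 48 genes past 1.5-fold with a second probe past 1.5-fold the same way, black points are the 280 probes printed 10 times with bars of the combined SD over spots, and dashed lines mark 2-fold. Most genes lie between the dashed lines, while Gm10639, Gm3776 and Gsta2 stand near 7 and Gsta4 at 4.19.

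Where a probe sat on the array entered these counts. Among 10157 genes whose probe lay in rows 1 to 160 (of 384 in the grid), 242 (2.38%) stood past 2-fold higher and 25 (0.246%) lower. Among 14305 genes with a probe in rows over 160, 52 (0.364%) stood past 2-fold higher and 80 (0.559%) lower. The median difference was 0.02 in the former rows and -0.05 in the latter. Leaving out every probe with another spot past 2-fold in the direction of its own difference within 3 rows and 3 columns, a choice made after the values were seen, left 112 genes higher and 84 lower of 21401. The row, or that it was among rows 1 to 160, is therefore given below for each single-probe gene past 1.5-fold higher whose probe lay in rows 1 to 160.

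**Figure D2:**
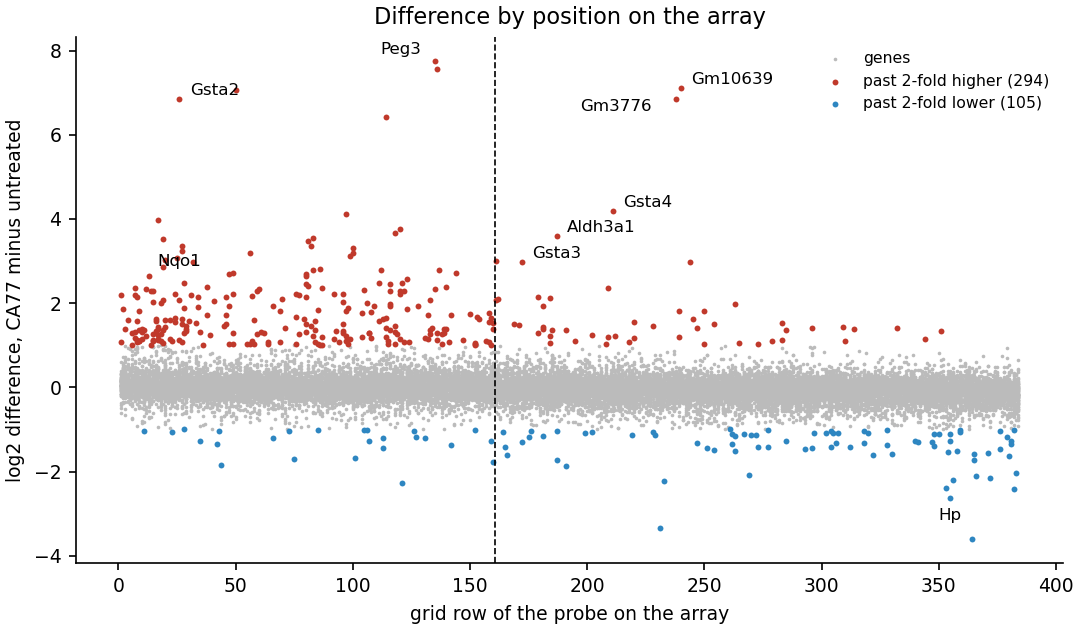
Log2 difference, CA77 minus untreated (vertical axis), against the grid row of the probe behind each gene value (horizontal axis). Red points are the 294 genes past 2-fold higher, blue points the 105 genes past 2-fold lower, and the dashed line follows row 160. Higher calls crowd rows 1 to 160 and lower calls the rows over 160, while Gm10639, Gm3776, Gsta4, Aldh3a1 and Gsta3 lie in the sparser part.

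A second probe of the same gene gave a closer look. Of 5906 genes with 2 or more measured probes, 93 were past 2-fold, and another probe was past 1.5-fold the same way in 13 of these (11 higher and 2 lower). With 1.5-fold asked of both probes, 28 genes were higher and 20 lower, and they are called supported below. With probes in rows over 160 alone these were 10 and 11, and scaling the processed signal at the 75th percentile gave 97 lower ones. Among the supported genes, 19 higher and 11 lower ones have a symbol. Some of them are described with their groups below, and the carbonyl reductase Cbr2 (-0.77) is among the lower ones. Under at least 1 alternative processing, the size of the difference fell short of 2-fold for some genes that are given below as past it. On the higher side the smallest values were 0.69 (Arhgdig), 0.91 (Blvrb), 0.92 (Fyb, Gstk1 and Serpinb9g), 0.96 (Enpp2) and 0.99 (Slc16a9). On the lower side they were -0.86 (Nol4), -0.92 (Acta2), -0.95 (Ifit1), -0.96 (H3c11), -0.99 (Saa3) and -1.0 (H2ac4).

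The alpha class glutathione S-transferases, which join glutathione to electrophiles and reduce lipid peroxides, were much higher with CA77. All 5 measured members of the 6 listed were past 2-fold higher, with a median difference of 6.84, against 1.2% past 2-fold higher and a median of -0.02 over all genes. Gm10639, a Gsta gene on chromosome 9, stood at 7.49 on the untreated array and 14.60 on the CA77 array, a difference of 7.11 (138-fold). Gm3776, its close copy, stood at 7.58 and 14.43, a difference of 6.85. Gsta2, on the same chromosome, stood at 6.61 and 13.45, a difference of 6.84 (6.25 to 7.39 over the alternatives). The Gsta2 probe lay in row 26, and none of its 31 neighbouring spots was past 2-fold (median difference -0.03).

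Gsta4, which favours hydroxyalkenals from lipid peroxidation, is the member of the class with repeated spots. It stood at 9.83 ± 0.10 on untreated and 14.02 ± 0.09 on CA77 (SD over 9 spots each), a difference of 4.19 (18.2-fold). Gsta3, on chromosome 1, stood at 7.06 and 10.03, a difference of 2.97, and its second probe differed by 2.48. Of 5 probes known only by a region of the array design, chr9:78107225-78118850 (mm9), those measured on both arrays differed by 7.06 and 6.83, while the other 3 passed the background test for untreated alone and differed by -0.21, -1.72 and -0.48. In addition, a single probe named by chr9:78104935-78116974 differed by 6.43. Gm10639 and Gm3776 are near-identical copies, so it is uncertain which of them each probe reads.

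The promoters of these genes are shown because the genes stood high together. They are RefSeq sequences of GRCm38.p6, from 250 bases before to 50 bases after the annotated start, and the table held 4 of the 5 measured members (Gsta4 was not among them). Capitals mark matches to the core of the antioxidant response element, TGANNNNGC, and to the core of the xenobiotic response element, GCGTG, on either strand. Gm10639 is chr9:78289678-78289977 on the plus strand, Gm3776 is chr9:78256879-78257178 on the plus strand, Gsta2 is chr9:78347096-78347395 on the minus strand, and Gsta3 is chr1:21240335-21240634 on the plus strand.
Gm10639: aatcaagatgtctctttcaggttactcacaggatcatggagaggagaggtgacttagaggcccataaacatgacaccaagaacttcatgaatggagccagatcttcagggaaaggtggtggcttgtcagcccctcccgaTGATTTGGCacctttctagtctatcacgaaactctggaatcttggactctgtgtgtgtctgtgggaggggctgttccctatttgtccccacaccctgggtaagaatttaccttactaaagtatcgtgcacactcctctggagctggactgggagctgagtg
Gm3776: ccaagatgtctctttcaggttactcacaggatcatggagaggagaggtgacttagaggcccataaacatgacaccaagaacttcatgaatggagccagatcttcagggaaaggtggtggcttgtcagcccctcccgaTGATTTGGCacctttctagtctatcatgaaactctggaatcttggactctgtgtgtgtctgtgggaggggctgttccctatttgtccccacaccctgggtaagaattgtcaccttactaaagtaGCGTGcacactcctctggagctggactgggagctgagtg
Gsta2: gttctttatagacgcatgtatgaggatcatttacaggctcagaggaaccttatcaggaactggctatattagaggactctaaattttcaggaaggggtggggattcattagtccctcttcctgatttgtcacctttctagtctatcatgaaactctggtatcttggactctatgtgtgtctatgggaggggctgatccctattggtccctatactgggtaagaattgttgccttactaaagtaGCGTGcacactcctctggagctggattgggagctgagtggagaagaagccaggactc
Gsta3: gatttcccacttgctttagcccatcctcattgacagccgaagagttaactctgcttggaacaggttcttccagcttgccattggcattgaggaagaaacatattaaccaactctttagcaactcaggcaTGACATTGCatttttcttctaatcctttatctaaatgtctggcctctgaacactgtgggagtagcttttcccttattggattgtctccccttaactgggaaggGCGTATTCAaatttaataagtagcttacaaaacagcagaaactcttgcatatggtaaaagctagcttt
The antioxidant core was found in 3 of these 4 windows, starting 111 bases before the start in Gm10639, 113 in Gm3776, and 121 and 18 in Gsta3. The xenobiotic core was found in Gsta2, 7 bases before the start, and in Gm3776, 11 bases after it. Of all 32851 promoter windows, 41.3% hold the antioxidant core and 32.4% the xenobiotic core, so a match is common. Among the windows of supported genes, 9 of 20 from higher genes and 6 of 12 from lower genes hold the antioxidant core, and 7 of 20 and 3 of 12 hold the xenobiotic core. The Gm10639 and Gm3776 windows matched at 97.7% of aligned bases, and the Gsta2 window matched them at 70.3% and 71.6%.

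The other glutathione S-transferases stood higher by smaller amounts. Of 17 measured members of 19, 15 were above 0, 7 were past 1.5-fold higher, 1 past 2-fold higher and 0 past 1.5-fold lower, with a median of 0.51. Over all genes 45.6% were above 0, 2.75% past 1.5-fold higher and 1.2% past 2-fold higher. Gstk1, the mitochondrial and peroxisomal kappa form, stood at 7.52 on untreated and 8.61 on CA77, a difference of 1.1. Gstm1, of the mu class, stood at 12.87 and 13.63, and its probes differed by 0.76 and 0.75. Gstp1, of the pi class, stood at 15.00 and 15.64, and its probes differed by 0.64 and 0.69. For these 2 genes the probes gave nearly the same value. Mgst1, a membrane-bound form of the endoplasmic reticulum, stood at 13.64 and 14.37, with differences of 0.73 and 0.82 at its probes. Gstm3 (0.67), Gstm4 (0.65, row 13) and Mgst2 (0.59), which also makes leukotriene C4, were past 1.5-fold as well. Gstz1 (-0.26), of tyrosine breakdown, and Mgst3 (-0.24) were the 2 members below 0. Gstt4, a theta class gene that is not in the list and was picked after its value was seen, stood at 10.01 and 11.35, a difference of 1.34.

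Targets of NRF2 outside the transferases split into a few large differences and many small ones. All 35 listed genes were measured, and 31 were above 0, 5 past 1.5-fold higher, 3 past 2-fold higher and 0 past 1.5-fold lower, with a median of 0.25. Over all genes 45.6% were above 0, 2.75% past 1.5-fold higher and 1.2% past 2-fold higher. Nqo1, the quinone reductase often used as a readout of NRF2, stood at 10.94 on untreated and 13.23 on CA77, a difference of 2.29 (4.90-fold). Its single probe lay in row 15, where none of 25 neighbouring spots was past 2-fold. Ptgr1, which reduces prostaglandins and alkenals, stood at 6.10 and 7.92, a difference of 1.82 (1.3 to 2.57 over the alternatives). Its untreated value was near the lower end of measured signal. Blvrb, a flavin and biliverdin reductase, stood at 13.99 and 15.06, a difference of 1.07, with its probe in row 1. The remaining members past 1.5-fold were the aldehyde oxidase Aox1 (8.33 and 9.07, a difference of 0.74) and Esd (16.34 and 17.02, with probe differences of 0.67 and 0.80).

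Other classical targets stood below 1.5-fold. The sulfiredoxin Srxn1 differed by 0.58 (row 115), the pentose phosphate enzyme Pgd by 0.57, the cystine carrier Slc7a11 by 0.54, the heme oxygenase Hmox1 by 0.37, the catalytic and modifier subunits of glutamate-cysteine ligase (Gclc and Gclm) by 0.25 and 0.18, and thioredoxin reductase Txnrd1 by 0.18. The genes of glutathione synthesis thus differed by less than the alpha class transferases. In the control layer of the pathway, 0 of 9 genes were past 1.5-fold: Nfe2l2 itself differed by 0.46, its repressor Keap1 by -0.19 and the adaptor Sqstm1 by 0.53 (row 26).

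Aldh3a1, which oxidises aromatic and fatty aldehydes, was the highest of the supported genes with a symbol. It stood at 11.96 on untreated and 15.54 on CA77, a difference of 3.59 (12-fold), and its second probe differed by 4.41. In a list of 13 genes of the AhR and its targets, 10 were measured, 5 were past 1.5-fold higher, 3 of these past 2-fold, and the median was 0.55, against 2.75% and 1.2% called and a median of -0.02 over all genes. Aldh3a1 and Nqo1 are in that list too. Cyp1b1, which hydroxylates hydrocarbons and steroids, stood at 12.68 and 13.83, a difference of 1.15 (2.21-fold). Ugt1a6b, a phenol glucuronosyltransferase, stood at 13.84 and 14.68, with probe differences of 0.84 and 0.92, and its close copy Ugt1a6a differed by 0.61 (row 138). Others of the list differed less: the target Tiparp by 0.33 and the receptor Ahr itself by 0.50 (row 20), while Cyp1a1, Cyp1a2 and Ahrr were not well above background on either array. Among 30 measured aldehyde and carbonyl enzymes the median was only 0.09. Besides Aldh3a1 and Ptgr1, Aldh2 of mitochondria was past 1.5-fold higher (0.64, row 3) and Aldh1a7 past 1.5-fold lower (-0.70, row 138).

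Set beside the related compounds at the same dose and time, the probes of these enzymes gave the values below. All 3 differences use the same untreated array. Gm10639 differed from untreated by 7.86 with AR7 and 0.25 with CA39, Gsta4 by 4.70 and 1.16, and Gsta3 by 3.67 and -0.06. Aldh3a1 differed by 4.0 with AR7 and 0.04 with CA39. Nqo1 differed by 2.25 with AR7 and 0.37 with CA39. Ptgr1, dim on the untreated array, differed by 1.82 with AR7 and 1.37 with CA39. Cyp1b1 had another order: its difference was 1.15 with CA77, -0.01 with AR7 and 1.34 with CA39. The median of the NRF2 targets was 0.25 with CA77, 0.56 with AR7 and -0.00 with CA39. With 1 array per compound, no difference between compounds could be tested.

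**Figure D3:**
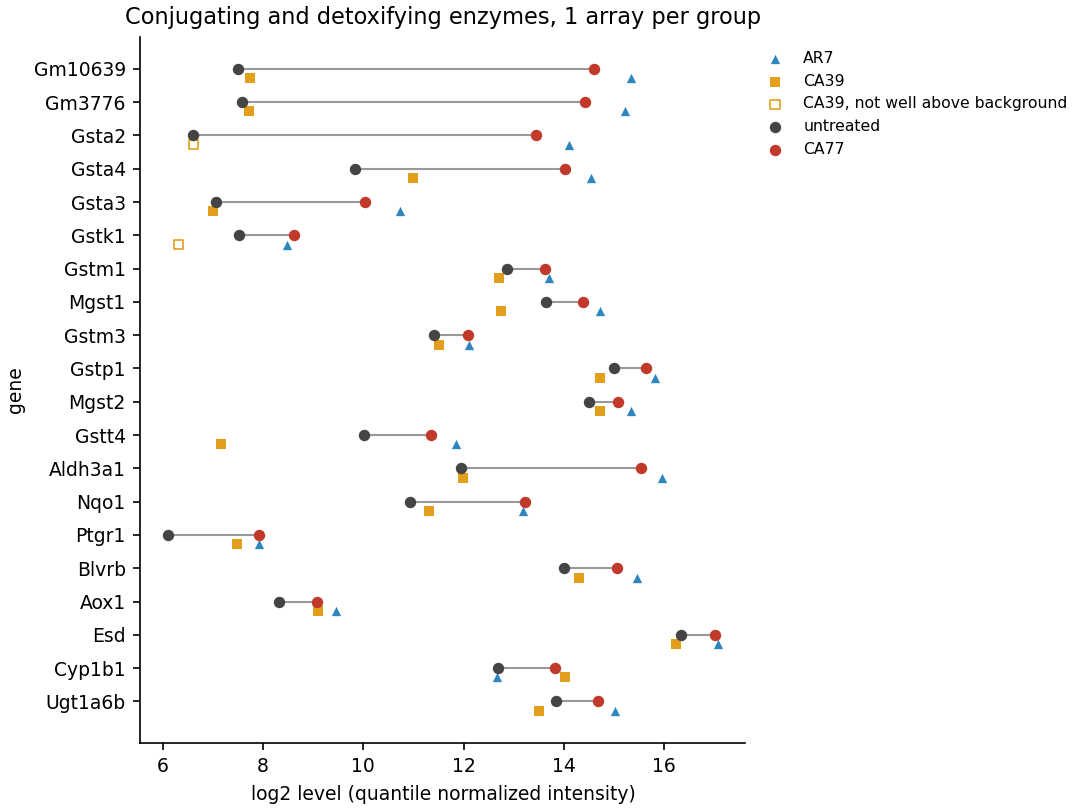
Log2 level of conjugating and detoxifying enzymes (horizontal axis) by gene (vertical axis), with untreated in grey and CA77 in red joined by a line, and AR7 (blue triangles) and CA39 (orange squares) set just under them. Each point is 1 array, and open squares were not well above background. Gsta4 runs from 9.83 to 14.02 and Aldh3a1 from 11.96 to 15.54, while CA39 lies near the untreated value for Gm10639, Gsta3 and Aldh3a1.

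A second gene family stood high together. Serpinb9 and its copies on chromosome 13, which encode inhibitors of granzyme B and related proteases, were looked at after their values were seen. All 6 measured copies were above 0, 4 were past 2-fold higher (1.2% over all genes), and the median was 1.15. Serpinb9e stood at 12.64 and 13.89, with probe differences of 1.25 and 1.75 in rows 17 and 126. Serpinb9f stood at 12.91 and 14.15, and Serpinb9g at 12.96 and 14.03, differences of 1.24 and 1.07 from probes in rows 202 and 218. Copies this alike can share signal, so the 6 values are not independent. With AR7 the median of the copies was 1.66 and with CA39 it was -1.21.

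Further supported genes past 2-fold higher encode proteins of varied function. Pglyrp2, an amidase that cuts bacterial peptidoglycan, stood at 6.98 and 8.40 (1.43, second probe 0.90). Fyb, an adaptor of T cells and platelets, stood at 8.22 and 9.47 (1.25, second probe 0.59). Slc16a9, a carrier for carnitine and creatine, stood at 8.92 and 10.02 (1.1, second probe 0.88). Both probes of Fyb lay in rows 39 and 82. Calr3, a testis form of calreticulin, stood at 7.12 and 8.51 (1.39, second probe 1.46), and Arhgdig, an inhibitor of GDP release from small GTPases, at 6.15 and 7.19 (1.03, second probe 1.25). The probes of Calr3 (rows 160 and 70) and Arhgdig (rows 138 and 123) also lay in rows 1 to 160. Arhgdig was near the lower end of measured signal on the untreated array. Under 2-fold but supported were the spermine oxidase Smox (0.87 and 0.78) and the arginine deiminase Padi2 (0.82 and 0.88).

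Among genes with a single probe in rows over 160, Slc26a4, an anion exchanger, stood at 5.98 and 8.33, a difference of 2.35. Catsperb, a subunit of a sperm calcium channel, stood at 5.94 and 8.09, a difference of 2.15. Over the alternatives the difference ran from 1.72 to 3.92 for Slc26a4 and from 1.53 to 3.59 for Catsperb. Both were near the lower end of measured signal on the untreated array, and on the AR7 and CA39 arrays Slc26a4 differed by 0.10 (not well above background) and 0.85, and Catsperb by 1.47 and -0.07 (not well above background). Brighter probes were Ier3, an immediate early gene that limits cell death (13.82 and 15.18, 1.36), the zinc importer Slc39a4 (10.00 and 11.40, 1.41) and Enpp2, which makes lysophosphatidic acid (13.88 and 15.01, 1.13). The 22 immediate early genes as a list had 19 measured members, 17 of them above 0 and 2 past 1.5-fold higher, with a median of 0.16. The shares over all genes were 45.6% above 0 and 2.75% past 1.5-fold higher. Fos (0.02), Jun (0.00) and Egr1 (-0.11) were near 0. Of the probes with repeated spots, Mmp9, a gelatinase, stood at 8.17 on untreated and 9.0 on CA77, a difference of 0.83.

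The largest difference of a gene with a symbol was not borne out by its other probe. Peg3, an imprinted zinc finger gene, stood at 6.45 and 14.21 at a spot in row 135 and column 129, a difference of 7.76, while its other probe differed by 0.17. The spot next to it, in row 136 and column 128, belongs to a probe of an unnamed region and differed by 7.56, while the 3 other probes of that region differed by -0.14, -0.00 and 0.09. The largest lower value, -3.60, likewise came from 1 probe of an unnamed region of chromosome 16 whose other measured probes differed by -0.28, -0.25 and 0.64. These were looked at after their values were seen. Of the supported regions without a symbol, those on chromosomes X (2.33, other probes -0.05 and 0.83), 10 (1.67, other probes -0.66, -0.23, -0.22, -0.09 and 0.69) and 5 (-1.09, other probes -0.20, -0.21 and -0.59) also had probes that disagreed. After Gsta2, the single-probe genes with a symbol in rows 1 to 160 were led by Lpcat4 (3.54), Cblif (3.49), Gm5934 (3.37) and Stfa3 (3.35), with ranges over the alternatives of 2.73 to 5.26, 2.77 to 4.31, 2.53 to 4.91 and 2.80 to 4.10. The Cblif and Stfa3 spots touch each other, in the same column of rows 81 and 82, and each has 5 neighbours past 2-fold higher. On the AR7 and CA39 arrays none of these 4 probes was well above background. For the same rows the 5 largest lower differences of genes with a symbol were those of Syt10 (-1.84), Hbq1b (-1.67), Lrrc2 (-1.36), Gimap5 (-1.34) and Nol4 (-1.21). Over the alternatives Hbq1b ran from -2.42 to -1.39, Gimap5 from -2.15 to -1.04 and Nol4 from -2.01 to -0.86.

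Some acute phase genes stood lower with CA77. Hp, which encodes the hemoglobin scavenger haptoglobin, stood at 11.60 on untreated and 8.98 on CA77, a difference of -2.62 (6.14-fold lower). Saa3, a serum amyloid made by fibroblasts and macrophages, stood at 11.57 and 10.53, a difference of -1.04. Cp, the ferroxidase ceruloplasmin, stood at 14.43 and 13.49, with probe differences of -0.94 and -0.65. Of the 19 measured acute phase, chemokine and inflammatory genes 11 were above 0 and 8 below, and the median was 0.05. Past 1.5-fold were 3 lower and 1 higher, against 2.67% and 2.75% over all genes. Lcn2 differed by -0.50 and Tnfaip3 by -0.39, and Cxcl1 (0.65) was past 1.5-fold higher, while C3 (0.12) and Ccl2 (0.01) were near 0. With AR7 the difference of Hp was -2.59, and with CA39 it was 1.37.

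Other single-probe genes past 2-fold lower in rows over 160 were mostly dim. Crhr2, a receptor for urocortins, stood at 8.77 and 6.62 (-2.15), Gm5901 at 9.54 and 7.5 (-2.03), Eno4, a sperm enolase, at 9.21 and 7.35 (-1.86) and Erbb3, a receptor of neuregulins, at 8.01 and 6.41 (-1.60). With AR7 and CA39, against the same untreated array, Crhr2 differed by -2.21 and -2.02, Gm5901 by -2.18 and -2.0, Eno4 by -2.58 and -2.62 and Erbb3 by -1.71 and 0.64. Crhr2 and Eno4 on both of those arrays, and Erbb3 with AR7, were not well above background. Over the alternatives the CA77 difference ran from -3.35 to -1.71 for Crhr2, from -2.46 to -1.60 for Eno4 and from -2.89 to -1.19 for Erbb3. For 3 genes with large values other probes differed less: Ushbp1 (-2.41 against 0.50), Pde4b, a phosphodiesterase of cyclic AMP (-2.08 against -0.44), and 9130019O22Rik (-2.11 against -0.04 and -0.07). Nog, an antagonist of bone morphogenetic proteins, stood at 10.44 and 8.96 (-1.47). Cacna1a, a subunit of a neuronal calcium channel, was the supported gene with a symbol past 2-fold lower (12.81 and 11.78, with probe differences of -1.03 and -1.18).

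Genes of sterol and fatty acid synthesis, many of them targets of SREBP2 and SREBP1, stood lower as a list by less than 2-fold. Of 31 measured members of 32, 27 were below 0, 10 were past 1.5-fold lower and 0 past 2-fold or past 1.5-fold higher, with a median of -0.48, against 2.67% past 1.5-fold lower and a median of -0.02 over all genes. Cyp51, which demethylates lanosterol, stood at 12.70 and 11.86, a difference of -0.84. Pmvk, a kinase of the mevalonate pathway, stood at 14.70 and 14.04, with probe differences of -0.66 and -0.63. The lower members include Mvd (-0.81), Nsdhl (-0.78), Insig1 (-0.74), Lss (-0.64) and Fdft1 (-0.62) of sterol synthesis and Elovl6 (-0.76) and Fasn (-0.70) of fatty acid synthesis. The regulators Srebf1 (0.16) and Srebf2 (0.03) were near 0 at their own transcripts, and Abcg1, a cholesterol exporter, differed by 0.43. The list's median was -0.46 with AR7 and 0.81 with CA39.

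Extracellular matrix genes also stood lower by less than 2-fold. Of 29 measured members of 34, 26 were below 0 and 8 past 1.5-fold lower, with a median of -0.35. Over all genes 45.6% were above 0 and 2.67% past 1.5-fold lower, with a median of -0.02. Col1a1, the main chain of type I collagen, stood at 15.59 and 14.77, a difference of -0.83. Bgn, a small proteoglycan, stood at 11.91 and 11.12 (-0.79), and Mgp, an inhibitor of mineralisation, at 8.39 and 7.57 (-0.82). Ogn (-0.82), Col6a2 (-0.70), Col6a1 (-0.68), Col3a1 (-0.63) and the crosslinking oxidase Lox (-0.61) completed the 8. The proteoglycans Dcn (0.31) and Lum (0.31) and the collagen chain Col5a2 (0.27) were the 3 members above 0. The list's median was -0.43 with AR7 and 0.70 with CA39.

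Among 20 measured genes of the contractile and TGFβ or YAP programmes, 13 were below 0, 4 past 1.5-fold lower and 1 past 2-fold lower, with a median of -0.08. Over all genes 2.67% and 0.429% were past these limits. Acta2 stood at 9.23 ± 0.09 and 8.20 ± 0.16 (SD over repeated spots), a difference of -1.03. Ccn2, a YAP and TGFβ target, stood at 14.73 and 14.02 (-0.71), and Amotl2 at 13.62 and 12.91 (-0.71), while Ccn1 (0.27) and Ankrd1 (-0.09) did not go with them. Interferon-stimulated genes had 20 measured members, 13 below 0, with a median of -0.05, against 45.6% above 0 over all genes. Of the 20, 1 was past 1.5-fold higher and 2 past 1.5-fold lower, against 2.75% and 2.67% over all genes. Ifit1 stood at 10.20 and 9.19, a difference of -1.01, and Ifit3 differed by -0.60. Histone genes, mostly replication-dependent but with the linker histone H1f0 (0.20) among them and grouped after values were seen, had 43 measured members. Of these 33 were below 0, 1 was past 1.5-fold higher (H1f2 0.78, row 52), 8 past 1.5-fold lower and 3 past 2-fold lower (H2bc18 -1.44, H3c11 -1.08 and H2ac4 -1.0), with a median of -0.12, against the same 2.67% and 0.429% over all genes.

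**Figure D4:**
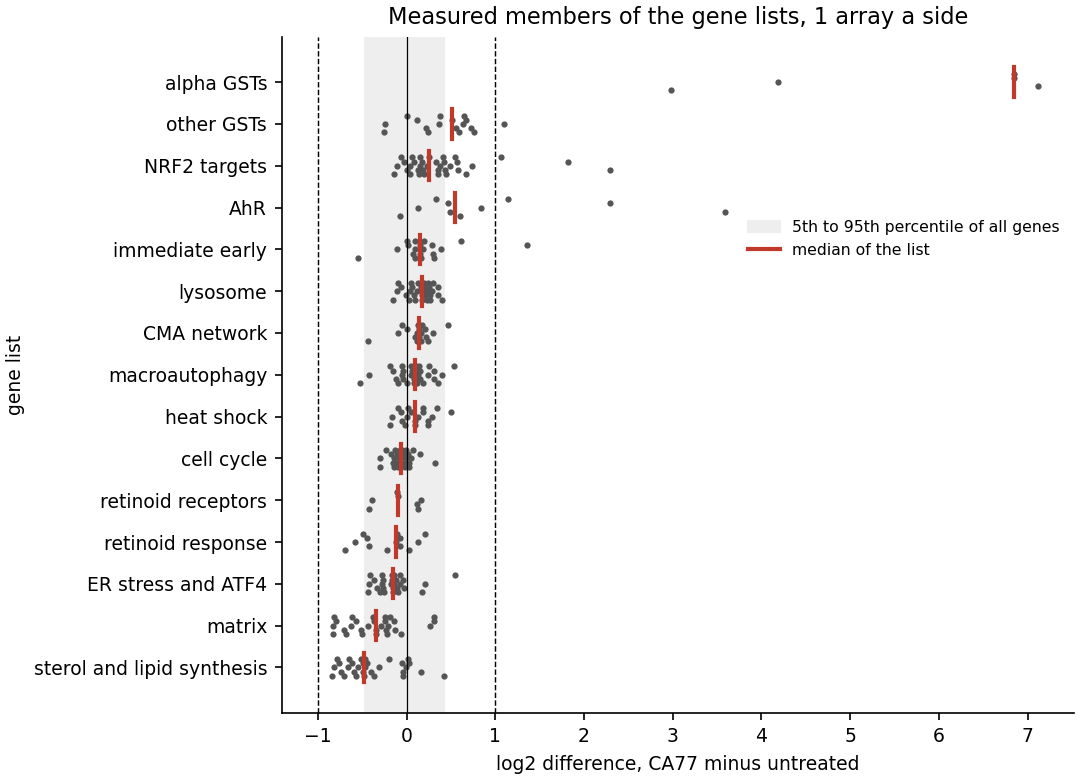
Log2 difference, CA77 minus untreated (horizontal axis), of each measured member of 15 gene lists (vertical axis), with the list median as a red bar and dashed lines at 2-fold. The grey band holds the differences from the 5th to the 95th percentile of all genes, -0.47 to 0.42. The alpha class transferases lie far to the right, the medians of matrix (-0.35) and sterol genes (-0.48) lie to the left, and the CMA network and lysosome lie close to 0.

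The CMA network itself differed little. All 18 listed genes were measured, 0 were past 1.5-fold either way, 9 lay within the tolerance, and 15 were above 0 at their brightest probe, with a median of 0.14. Over all genes 2.75% were past 1.5-fold higher, 2.67% past 1.5-fold lower, 51.7% within the tolerance and 45.6% above 0. Among the effectors, Lamp2 stood at 15.09 on untreated and 15.26 on CA77, with probe differences of 0.18 and 0.22. These probes do not tell the LAMP2A splice form from the others as named here. Hspa8 stood at 17.87 and 17.88, with probe differences of 0.01, 0.04 and 0.15. The cochaperones Dnajb1 (0.25), Hsp90aa1 (0.13) and Hsp90ab1 (0.09) differed by at most 1.19-fold.

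The regulators of the network spread more widely. Nfe2l2, which raises Lamp2 transcription, was the highest at 14.59 and 15.06, a difference of 0.46 (1.38-fold). Gfap, a stabiliser of the LAMP2A complex, was the lowest at 7.92 and 7.48, a difference of -0.43 from a dim probe. Its other probes differed by -0.31 and 0.23 but were not well above background on either array. Ctsa, which cleaves LAMP2A, differed by 0.30, Nfatc1 by 0.22, the phosphatase Phlpp1 by 0.21, Rac1 by 0.16 and -0.15 at its probes, Rictor by 0.12, Rab11a by 0.12, Eef1a1 by 0.14 and -0.09 at its probes, Akt1 by -0.05 and Akt2 by 0.15. Rara stood at 13.48 and 13.38, with probe differences of -0.10 and -0.03. Ncor1, the corepressor of RARα, stood at 11.39 and 11.56, with probe differences of 0.17, 0.20 and -0.03. The network's median was 0.08 with AR7 and 0.00 with CA39.

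**Figure D5:**
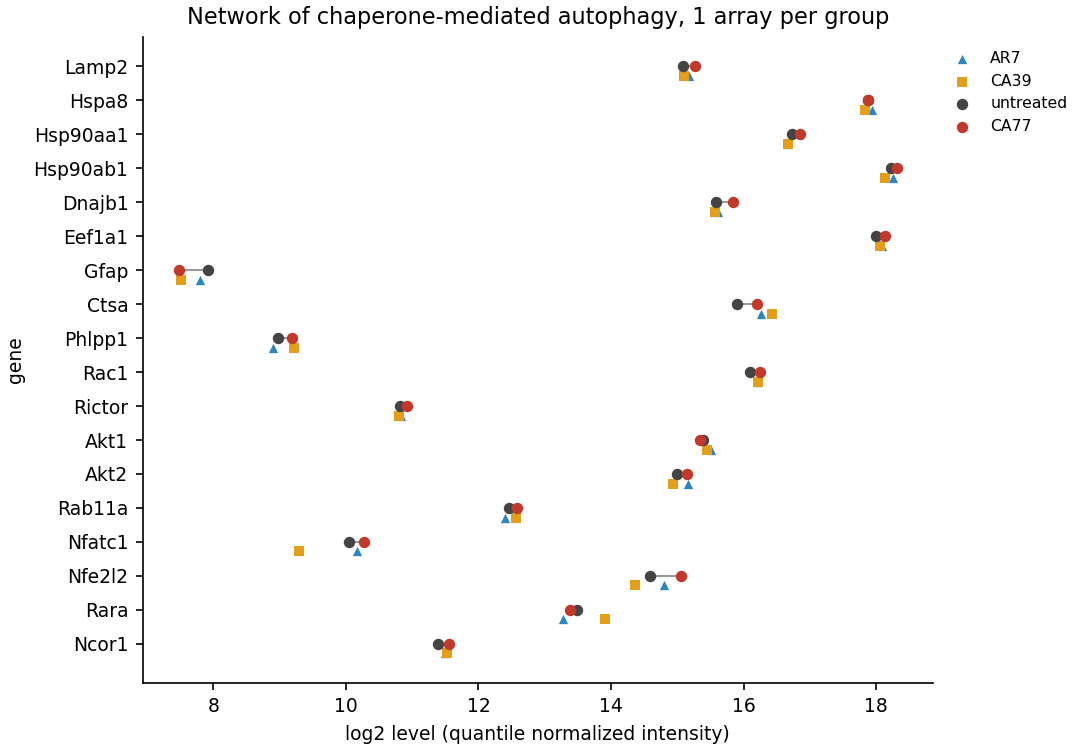
Log2 level of the 18 genes of the CMA network (horizontal axis) by gene (vertical axis), with untreated in grey and CA77 in red joined by a line, and AR7 (blue triangles) and CA39 (orange squares) set just under them. Each point is 1 array. The points of a gene nearly coincide for most genes, and the widest gaps between untreated and CA77 are at Nfe2l2 (0.46) and Gfap (-0.43, a dim probe).

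Lysosomal genes and genes of macroautophagy gave the same picture of small differences. Of 31 lysosomal genes, all measured, 0 were past 1.5-fold, 12 lay within the tolerance, 26 were above 0 and the median was 0.18. The shares over all genes were 51.7% within the tolerance and 45.6% above 0. The hydrolase Ctsz was highest (0.40), and the calcium channel Mcoln1 differed by 0.36. Of 33 measured macroautophagy genes 0 were past 1.5-fold, 22 lay within the tolerance and the median was 0.10, with Sqstm1 highest (0.53) and Atg9a lowest (-0.52). Map1lc3b, the LC3 used to mark autophagosomes, differed by 0.13. Of 7 measured retinoid receptors and corepressors 0 were past 1.5-fold, with a median of -0.10. Rxrg (-0.42) lay lowest, and Rarb was well above background on the CA77 array only. Of 13 measured genes of retinoid uptake, breakdown and response, 10 were below 0, with a median of -0.12, against 45.6% above 0 over all genes. Past 1.5-fold lower was 1, the retinol dehydrogenase Rdh11 (-0.70, row 76), against 2.67% over all genes. Stra6, a receptor for retinol binding protein, differed by -0.42, Tgm2, a transglutaminase that retinoids raise in many cells, by -0.49, and Cyp26b1, which breaks down retinoic acid, by -0.22.

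Stress and growth programmes differed by less than 1.5-fold at each measured member. Of 28 measured genes of the ER stress and ATF4 responses 25 were below 0 and 11 lay within the tolerance, but 0 were past 1.5-fold and the median was -0.16. The shares over all genes were 45.6% above 0 and 51.7% within the tolerance. Heat shock genes (19 measured, median 0.09), p53 targets (15 measured, median 0.05) and genes of hypoxia and glycolysis (20 measured, median -0.01) had 0 members past 1.5-fold. Of 30 cell cycle genes, all measured, 25 lay within the tolerance and the median was -0.06. Mki67, a marker of cycling cells, stood at 15.23 and 15.26.

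Markers were read to check the label of the cells. Fibroblast markers were measured for 9 of 10 genes, among them Vim (17.42 and 17.48), Col1a2 (18.27 and 17.92) and S100a4 (18.28 and 18.20), and Pdgfrb was not well above background on either array. Their median difference was -0.28, and 3 of them (Col1a1, Col3a1 and Fbln2) were past 1.5-fold lower. Over all genes the median was -0.02 and 2.67% were past 1.5-fold lower. Of the epithelial markers Epcam, Cdh1 and Krt19 were not well above background on either array, and the other 5 of 8 stood between 6.33 and 7.95. Their median difference was -0.18. Of the leukocyte markers 6 of 8 were measured, with a median difference of -0.26. Ptprc stood at 6.33 and 6.82. On the untreated array Adgre1 stood at 7.07, Lyz2 at 9.86, Cd3e at 10.38, Csf1r at 11.54 (brightest probe) and Itgam at 12.37. Not all leukocyte markers were therefore dim. Csf1r, with a difference of -0.88 at its brightest probe, differed by -0.23 and 0.21 at its other probes. Endothelial markers were measured for 4 of 5 genes (median 0.16) and muscle and fat markers for 6 of 8 (median 0.17), with Adipoq not well above background on either array. The part of other cells in the differences above was not tested.

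Some genes were well above background on 1 array only, and their differences are bounds. On the CA77 array alone 574 genes were well above background, and for 254 the bound was past 2-fold, 218 of these in rows 1 to 160. On the untreated array alone there were 3183 genes, 56 of them past 2-fold and 49 of these in rows over 160. In the rows over 160 the largest bounds were at least 11.6-fold higher with CA77 for Tram1l1, at least 4.34-fold for Nlrc4, at least 4.29-fold for Ascl4 and at least 3.65-fold for Ido2, whose probes lie in rows 183 and 184. In the other direction Htr1b was at least 8.08-fold lower, 4930594C11Rik at least 6.11-fold, the liver and endoderm factor Foxa2 at least 4.6-fold and Fgf20 at least 4.40-fold. Neither the former 4 probes nor the latter 4 were well above background on the AR7 and CA39 arrays.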

How the data were processed

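Total RNA of NIH-3T3 cultures was labelled and hybridised to 1-colour Agilent arrays, and the authors scanned 1 slide and extracted spots with Feature Extraction 10.7.3.1, per the file headers. The authors deposited, for each spot, intensities as the scanner software gave them (linear, not normalized). The deposited series table equals the background-subtracted intensity at all 62976 spots of each array. RMA and oligo, named in the submitters' processing notes, were not used here. The 2 arrays compared had a median net signal of 159 (untreated) and 138 (CA77), with 69.7% and 61.5% of gene probes well above background, 0 saturated spots and 440 spots with an outlier mark on either. The number of arrays, 1 a side, limits the precision.

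Median intensity was corrected for local background by normexp in limma 3.58.1 under R 4.3.3, with no offset, control spots were left out, and the 4 arrays were quantile normalized and put on the log2 scale. This step was tested on simulated data. Spots of a probe were averaged, and a probe counted as measured when more than 50% of spots passed the scanner software's background test on both arrays. Of the probes, 27619 were named through RefSeq accessions of GRCm38.p6, and the others kept the name of the array design, which cites mm9. A gene took the probe with the highest mean of both arrays. A bound compares the bright array with the 1st percentile of detected signal on the dim array or the probe's own value, whichever is higher. Neighbouring spots are those within 3 rows and 3 columns.

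The named genes are supported genes past 2-fold (up to 12 each way), the largest with a symbol in rows over 160 (up to 8) and in rows 1 to 160 (up to 5), all CMA genes, members of the other lists past 1.5-fold if supported or in rows over 160 and otherwise past 2-fold, and the largest bounds (up to 5). Some genes that these rules or lists hold are counted but not reported here by name. Other genes are given as list members, or were picked with values in view. The comparison, the 27 gene lists and the rules were chosen with earlier results of these data known. Alternatives covered the signal, background correction, scaling, filters, threshold, position and gene summary.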

Additional observations from a re-analysis of the deposited data

How the results depend on the processing

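Each group is 1 array, so 1 library cannot be left out, and no paired analysis was possible because the groups share no 2 replicate numbers. No alternative turned the side of 0 of 60 of the 61 named genes past 2-fold, and 41 stayed past 2-fold under all. The others are the genes given with their smallest values in the report, and Ushbp1, 9130019O22Rik and unnamed regions, whose probes disagreed. The exception is the unnamed region chr10:126818382-126856582_R, which went from 1.67 to -0.15 with the median over probes.

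Genes past 2-fold higher numbered 294, and 504 with the quantile normalized processed signal, 971 with no filter on dim probes, 60 of 15879 when genes took their value from probes in rows over 160 alone, 673 at 1.5-fold, 103 when measured on all 4 arrays and 112 without probes that have a neighbour past 2-fold the same way. Genes lower numbered 105, and 279 with the processed signal scaled at the 75th percentile, 227 with the same centred on the median of all genes, 231 with the quantile normalized processed signal, 484 with the deposited table, 405 with no filter and 652 at 1.5-fold. The share of higher calls was 73.7%, and 59.2% at the 75th percentile, 65.5% when that was centred and 42.4% with the deposited table, where the median of all genes was -0.20. The centring and the neighbour rule were chosen after seeing the data.

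Supported genes higher numbered 28, and 52 with the quantile normalized processed signal, 10 in rows over 160 and 6 with 2-fold asked of both probes. Those lower numbered 20, and 97 at the 75th percentile, 54 with the quantile normalized processed signal, 11 with an offset of 50, 13 with no background correction, 261 with the deposited table, 11 in rows over 160 and 1 with 2-fold asked of both. Of 243 recomputed list medians 221 moved by less than the tolerance. The alpha transferase median was 7.19 at the 75th percentile, 7.24 when that was centred, 7.2 with the quantile normalized processed signal, 6.25 with an offset of 50, 6.37 with no background correction, 7.06 with the deposited table and 5.52 in rows over 160. The AhR median was 0.71 when centred. With the deposited table the medians were -0.011 (CMA network), -0.11 (NRF2 control), -0.07 (aldehyde and carbonyl enzymes), -0.28 (retinoid response), -0.072 (heat shock), -0.52 (matrix), -0.020 (immediate early), and -0.44, -0.50, -0.52, -0.012 and -0.10 (markers of fibroblasts, epithelium, leukocytes, endothelium, and muscle and fat). The epithelial median was -0.36 at the 75th percentile and the endothelial median -0.20 in rows over 160. These values are to be read against the median of all genes under that table. The causes were not tested.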
